A study of Caenorhabditis elegans with 12 samples.

Results

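The integrin attachment and dense body core is a set of 9 genes whose protein products tie the contractile apparatus of Caenorhabditis elegans body-wall muscle to the cell membrane. The set was taken by gene symbol and holds pat-2, pat-3, unc-112, pat-4, unc-97, pat-6, unc-95, deb-1 and atn-1, which are 9 of the 23515 genes in the table. All 9 were found, and all 9 passed the filter on low values that left 5921 genes for testing. Polyadenylated RNA of whole larvae of the third larval stage, fed Escherichia coli on solid medium at 15 °C, was read in 12 stranded mRNA libraries. They formed 3 groups of 4: larvae carrying the unc-120(st364) allele, larvae carrying the fhod-1(tm2363) allele, and N2 wild type larvae. No treatment separated the groups. Serum response factor, a muscle transcription factor, is the product of unc-120 in worms, and an actin-assembling formin is the product of fhod-1. Whether both act on striated muscle by separate routes is the question of the series.

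In body-wall muscle, actin filaments end on dense bodies, finger-like structures that are the worm counterpart of vertebrate Z-disks and focal adhesions. At their base an integrin made of the alpha subunit PAT-2 and the beta subunit PAT-3 spans the membrane and binds the basement membrane outside. UNC-112 (kindlin), PAT-4 (integrin-linked kinase), UNC-97 (PINCH) and PAT-6 (parvin) assemble on its cytoplasmic side, at dense bodies and also at M-lines, where myosin filaments are anchored. UNC-95, a LIM-domain protein, sits at both sites, DEB-1 (vinculin) at the dense body base, and ATN-1 (alpha-actinin) deeper in the dense body, where it cross-links actin. Embryos without PAT-2, PAT-3, PAT-4 or PAT-6 arrest paralysed during elongation.

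A level here is the deposited value, of the TPM kind (transcript share of a library) per gene span: reads divided by the length of the gene from its first to its last base, introns included, then scaled to the same total in every library. Read numbers could be worked back from these values, and came to 29170906 to 42991531 reads per library. The 9 genes had between 1007 and 18911 reads each in any library, so counting error alone was between 0.727% and 3.15% of a level. Levels are given in the order of replicates 1 to 4. Fold changes are log2 differences of level plus 1, with the standard error (SE) and the adjusted p of a limma fit to all tested genes. The adjustment is that of Benjamini and Hochberg over 5921 genes, and a gene was called at an adjusted p under 0.05. The labels do not say whether the 4 libraries of a group came from separate cultures, so p-values measure the spread between these libraries, which may be technical. In RNA from whole larvae, fewer cells of a type and less RNA per cell cannot be told apart.

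Libraries differed in how their values depended on gene length. The slope of a library's log2 values on log2 exonic length, relative to the mean of all libraries, was between -0.327 and 0.174 in unc-120(st364), between -0.151 and 0.179 in fhod-1(tm2363) and between -0.157 and 0.145 in wild type. Replicate 2 of unc-120(st364), at -0.327, stood apart, and the comparisons of the 9 genes are therefore given with and without it. They are also given after a loess correction of every library for exonic length, called length-corrected below. The unc-120 transcript itself stood at 33.5 ± 8.04 in unc-120(st364), against 13.5 ± 2.81 in wild type (SD, n = 4 each), with no overlap. The fhod-1 transcript, at 4.79 ± 1.48 in fhod-1(tm2363) and 5.63 ± 1.09 in wild type, did not tell these 2 groups apart. By the source-name label, strains RW364 and XA8001 would be swapped between the mutants; groups follow the genotype label, which gives RW364 to unc-120(st364) and XA8001 to fhod-1(tm2363).

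No gene of the attachment core was called in any of the 3 comparisons on uncorrected values. In unc-120(st364) the fitted log2 difference from wild type was below 0 for 8 of the 9 genes, down to -0.33, and 0.00 for pat-6. In fhod-1(tm2363) it was above 0 for all 9, between 0.03 and 0.37, and in unc-120(st364) set against fhod-1(tm2363) all 9 differences were below 0, between -0.59 and -0.20. Over all tested genes 50.6%, 48.7% and 52.7% were fitted lower in these 3 comparisons. None of the differences of the 9 genes passed the threshold on the uncorrected scale. On simulated data for unc-120(st364) against wild type, 5 of 50 genes with a log2 change of 0.5 were called. Missing calls in that comparison therefore do not show that levels were unchanged. After length correction pat-2 was higher in fhod-1(tm2363) than in wild type, and unc-112, pat-4, pat-2 and unc-97 were lower in unc-120(st364), each set against fhod-1(tm2363).

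**Figure D1:**
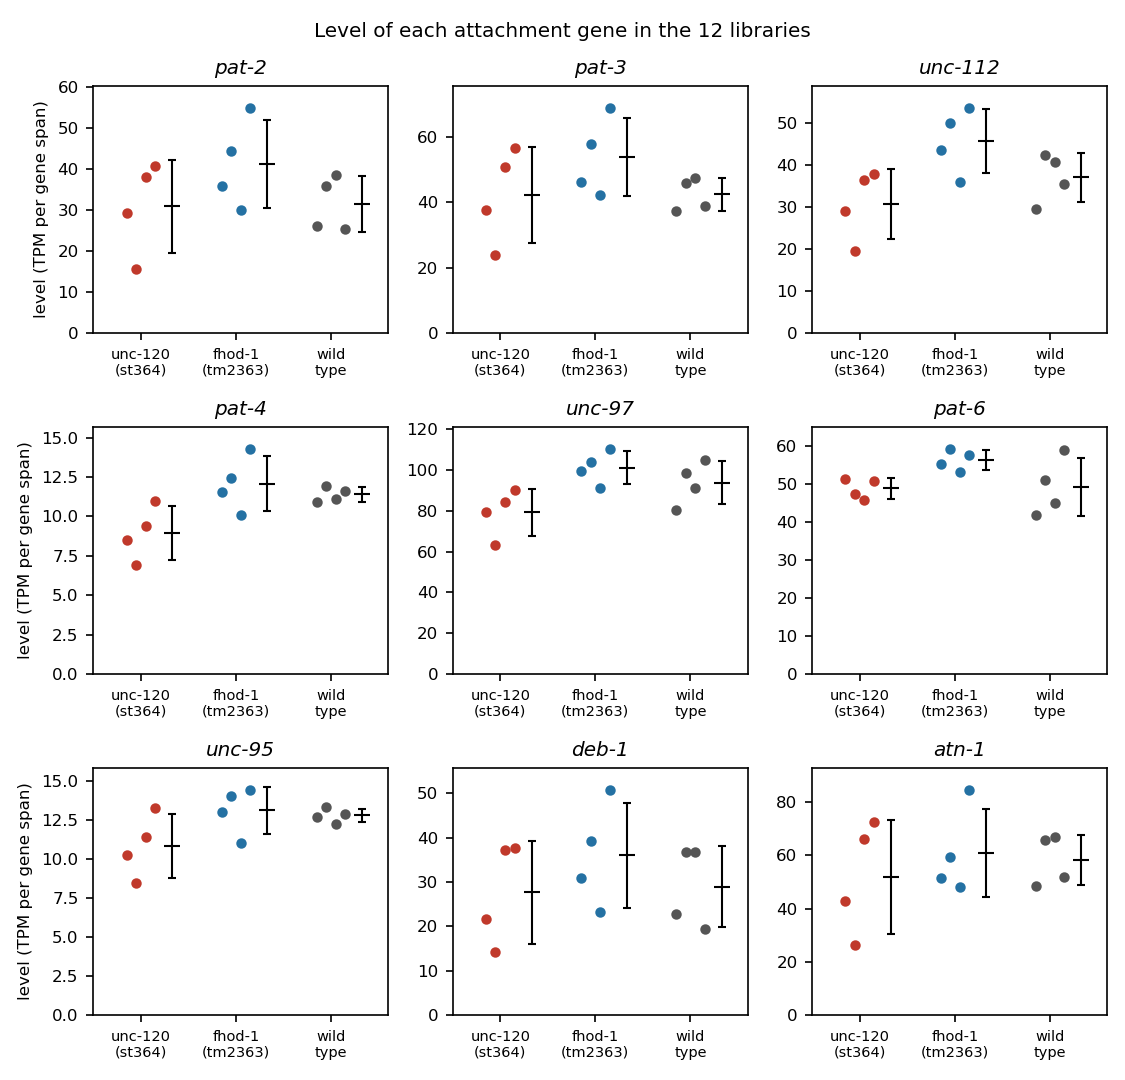
Levels of the 9 genes (TPM per gene span, linear axis from 0) in each of the 12 libraries, with replicates 1 to 4 from left to right in each group; the black mark and bar beside the points are the mean and SD of 4 libraries. Replicate 2 of unc-120(st364) is the lowest point of its group in 8 of the 9 panels. In the panels of unc-97 and pat-6 all 4 unc-120(st364) points lie below all 4 fhod-1(tm2363) points, as in 4.75% of all tested genes.

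The integrin alpha gene pat-2 lies on chromosome III (WBGene00003929, WBcel235, III:8818899-8825270, plus strand), with 62.3% of its span in exons, and is overlapped on the other strand by F54F2.9. Its levels were 29.3, 15.5, 38.1 and 40.6 in the unc-120(st364) libraries, 35.8, 44.3, 30.1 and 54.7 in the fhod-1(tm2363) libraries, and 26.0, 35.8, 38.6 and 25.3 in wild type. The single lowest library was an unc-120(st364) one and the single highest a fhod-1(tm2363) one, and all 3 groups overlapped. Relative to wild type the log2 fold change was -0.09 in unc-120(st364) (SE 0.27, limma adjusted p = 1.0) and 0.37 in fhod-1(tm2363) (SE 0.27, limma adjusted p = 0.512). The level of F54F2.9 reached at most 19.81, and whether the authors counted by strand is not given in the sources used here, so reads of this pair may have been shared.

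The integrin beta gene pat-3 (WBGene00003930, III:3908929-3914149, minus strand) has 54.5% of its span in exons. It had levels of 37.6, 23.8, 50.6 and 56.6 in the unc-120(st364) libraries, 46.2, 57.8, 42.2 and 68.6 in the fhod-1(tm2363) libraries, and 37.3, 45.8, 47.3 and 39.0 in wild type. The wild-type libraries lay close together and within the range of the unc-120(st364) ones. Its log2 fold change was -0.07 in unc-120(st364) (SE 0.24, limma adjusted p = 1.0) and 0.32 in fhod-1(tm2363) (limma adjusted p = 0.515), each against wild type. The subunits kept a narrow ratio: per exonic base, pat-2 stood at 0.634 ± 0.0479 of pat-3 in unc-120(st364), 0.668 ± 0.0315 in fhod-1(tm2363) and 0.644 ± 0.067 in wild type (SD, n = 4 each). That ratio varied between 0.568 and 0.714 over the 12 libraries, while pat-2 itself varied 3.53-fold and pat-3 2.88-fold. Much of the variation of both genes went with length: their within-group SD fell from 0.45 and 0.37 to 0.09 and 0.11 after length correction. A narrow ratio was not particular to this pair, since that of unc-97 to pat-4 varied to a like degree, between 2.65 and 3.33.

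Of the adaptor genes, unc-112 (WBGene00006836, V:14691854-14697107, minus strand, 47.3% exonic) encodes the kindlin that binds the integrin tail. It is overlapped on the other strand by gasr-8, whose level was at most 1.03. Its levels were 29.1, 19.5, 36.5 and 37.9 in the unc-120(st364) libraries, 43.5, 50.1, 36.1 and 53.5 in the fhod-1(tm2363) libraries, and 29.6, 42.4, 40.7 and 35.6 in wild type. A single fhod-1(tm2363) library, replicate 3, fell within the unc-120(st364) range, and the other 3 were above every unc-120(st364) and every wild-type library. The log2 fold change of unc-112 was -0.29 in unc-120(st364) (SE 0.20, limma adjusted p = 1.0) and 0.29 in fhod-1(tm2363) (SE 0.20, limma adjusted p = 0.478) against wild type. Between the mutants it was -0.59 (SE 0.20, limma adjusted p = 0.262).

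The gene pat-4 (WBGene00003931, III:89453-94809, minus strand) encodes the integrin-linked kinase, and only 29.8% of its span is exonic. Levels of pat-4 were 8.54, 6.93, 9.37 and 11.01 in the unc-120(st364) libraries, 11.5, 12.5, 10.1 and 14.3 in the fhod-1(tm2363) libraries, and 10.9, 11.97, 11.1 and 11.6 in wild type. In unc-120(st364), 3 libraries were below every library of the other groups, and replicate 4 lay between the wild-type values. The log2 fold change of -0.33 in unc-120(st364) against wild type (SE 0.15) had an unadjusted p of 0.0487 and a limma adjusted p of 0.725. In fhod-1(tm2363) it was 0.07 against wild type (limma adjusted p = 0.858).

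The PINCH gene unc-97 (WBGene00006826, X:5593133-5594965, plus strand) is the most compact of the set, with 83.3% of its span in exons. Its levels were 79.5, 63.0, 84.4 and 90.0 in the unc-120(st364) libraries, 99.4, 104.2, 91.3 and 110.1 in the fhod-1(tm2363) libraries, and 80.5, 98.6, 91.1 and 105 in wild type. All 4 unc-120(st364) libraries were below all 4 fhod-1(tm2363) libraries, as in 4.75% of all tested genes, and wild type overlapped both. Its log2 fold change against wild type was -0.25 in unc-120(st364) (SE 0.14, limma adjusted p = 0.949) and 0.11 in fhod-1(tm2363) (limma adjusted p = 0.722).

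The parvin gene pat-6 (WBGene00003932, IV:261886-264232, minus strand, 53.6% exonic) behaved least like the others. It had levels of 51.3, 47.2, 45.9 and 50.9 in the unc-120(st364) libraries, 55.2, 59.1, 53.3 and 57.7 in the fhod-1(tm2363) libraries, and 41.8, 51.1, 44.9 and 59.1 in wild type. Its unc-120(st364) libraries were all below its fhod-1(tm2363) libraries, as in 4.75% of all tested genes, and the wild-type libraries overlapped both groups. After length correction the unc-120(st364) and fhod-1(tm2363) libraries of pat-6 overlapped. Replicate 2 of unc-120(st364) was not the lowest for this gene. The log2 fold change against wild type was 0.00 in unc-120(st364) (SE 0.13, 95% interval -0.28 to 0.28) and 0.20 in fhod-1(tm2363) (limma adjusted p = 0.439). The correlation of pat-6 with the mean of the other 8 genes over the 12 libraries was r = 0.44 (0.46 length-corrected), a description of libraries that share scaling and groups; for the others it was 0.85 to 0.98 (0.71 to 0.93 length-corrected).

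The gene unc-95 (WBGene00006824, I:14381344-14384737, minus strand, 33.8% exonic), for the LIM-domain protein, had levels of 10.2, 8.45, 11.4 and 13.3 in the unc-120(st364) libraries, 13.0, 14.1, 11.1 and 14.4 in the fhod-1(tm2363) libraries, and 12.7, 13.3, 12.3 and 12.9 in wild type. Wild type was tight, and 3 of the 4 unc-120(st364) libraries lay below it. Against wild type its log2 fold change was -0.24 in unc-120(st364) (SE 0.15, limma adjusted p = 1.0) and 0.03 in fhod-1(tm2363) (limma adjusted p = 0.938).

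The vinculin gene deb-1 (WBGene00000942, IV:7085216-7094364, minus strand, 42.5% exonic) has the longest span of the set, 9149 bases. Its levels were 21.5, 14.3, 37.2 and 37.6 in the unc-120(st364) libraries, 30.9, 39.3, 23.1 and 50.6 in the fhod-1(tm2363) libraries, and 22.8, 36.8, 36.7 and 19.4 in wild type. Wild-type replicates 2 and 3 were high and replicates 1 and 4 low, so libraries of 1 group differed by more than the group means did. The log2 fold change was -0.11 in unc-120(st364) (SE 0.32, 95% interval -0.79 to 0.57) and 0.30 in fhod-1(tm2363) (SE 0.32, 95% interval -0.38 to 0.98) against wild type.

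The alpha-actinin gene atn-1 (WBGene00000228, V:12478413-12484442, plus strand, 53.9% exonic) had levels of 42.9, 26.2, 66.1 and 72.4 in the unc-120(st364) libraries, 51.5, 59.6, 48.0 and 84.4 in the fhod-1(tm2363) libraries, and 48.5, 65.8, 66.8 and 51.7 in wild type. The unc-120(st364) libraries reached both below and above the whole wild-type range. Its log2 fold change against wild type was -0.25 in unc-120(st364) (SE 0.28, limma adjusted p = 1.0) and 0.04 in fhod-1(tm2363) (SE 0.28, limma adjusted p = 0.95). Per exonic base, atn-1 stood at 1.48 ± 0.0755 times deb-1 in unc-120(st364), 1.36 ± 0.189 times in fhod-1(tm2363) and 1.66 ± 0.318 times in wild type.

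Levels of different genes can be compared per exonic base, in TPM computed from the recovered reads and exonic lengths. On that scale the order in wild type was unc-97 (118 ± 12.7 TPM), atn-1 (113 ± 18.1), pat-6 (96.4 ± 14.4), unc-112 (82.4 ± 12.5), pat-3 (81.5 ± 9.27), deb-1 (71.4 ± 22.3), pat-2 (53.0 ± 11.3), pat-4 (40.2 ± 1.51) and unc-95 (39.8 ± 1.35), as mean ± SD of 4 libraries. All 9 genes lay between the 86.4th and the 94.9th percentile of the genes of the table that have an exonic length. The base of this ranking includes genes with few or no reads, as only 19400 to 20472 of the 23515 genes were above 0 in a library. Steps that held in all 12 libraries were those from deb-1 to pat-2 and from pat-2 to pat-4. Neighbours such as unc-97 and atn-1 (unc-97 above in 7 of 12 libraries), unc-112 and pat-3 (unc-112 above in 3 of 12) and pat-4 and unc-95 (pat-4 above in 7 of 12) did not differ beyond their spread. Per gene span the order was partly another one, with pat-3 above unc-112, pat-2 above deb-1 and unc-95 above pat-4, since the exonic share of the span runs between 29.8% and 83.3%.

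In unc-120(st364) against wild type, 0 of the 9 genes were called, where 0.726% of all tested genes were. At an unadjusted p under 0.05 there was 1, pat-4, against 6.82% of all genes, and a fit of limma voom to the recovered reads also called 0 (smallest adjusted p 0.34), where it called 0.473% of all genes. On uncorrected values 0 genes of the set had all unc-120(st364) libraries lower, where 1.96% of all genes did. The median log2 fold change of the 9 was -0.24, beside 0 over all tested genes. Without replicate 2 of unc-120(st364) the median was 0.01, with 5 genes fitted higher and 4 lower: pat-2 was at 0.20, pat-3 at 0.17, deb-1 at 0.16 and atn-1 at 0.03, and pat-4 at -0.23. For pat-2 and deb-1 the sign also turned without replicate 3 of wild type (0.02 each), and for deb-1 without replicate 2 of wild type (0.02).

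Length correction brought the SE of these estimates to between 0.08 and 0.12, and 0 of the 9 were called, where 1.81% of all genes were. In pat-4 (-0.31, SE 0.08, limma adjusted p = 0.0635), unc-112 (-0.27, SE 0.08, adjusted p = 0.141) and unc-97 (-0.23, SE 0.08, adjusted p = 0.215) all 4 unc-120(st364) libraries were below all 4 wild-type libraries, a pattern that 3.95% of all genes showed in this direction. The integrin genes were at -0.06 for pat-2 (95% interval -0.23 to 0.12) and -0.05 for pat-3 (95% interval -0.24 to 0.15), and pat-6 was at 0.02 (95% interval -0.20 to 0.23). Without replicate 2 of unc-120(st364) these values were -0.32 for pat-4, -0.26 for unc-112 and -0.23 for unc-97, and again 0 genes were called.

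**Figure D2:**
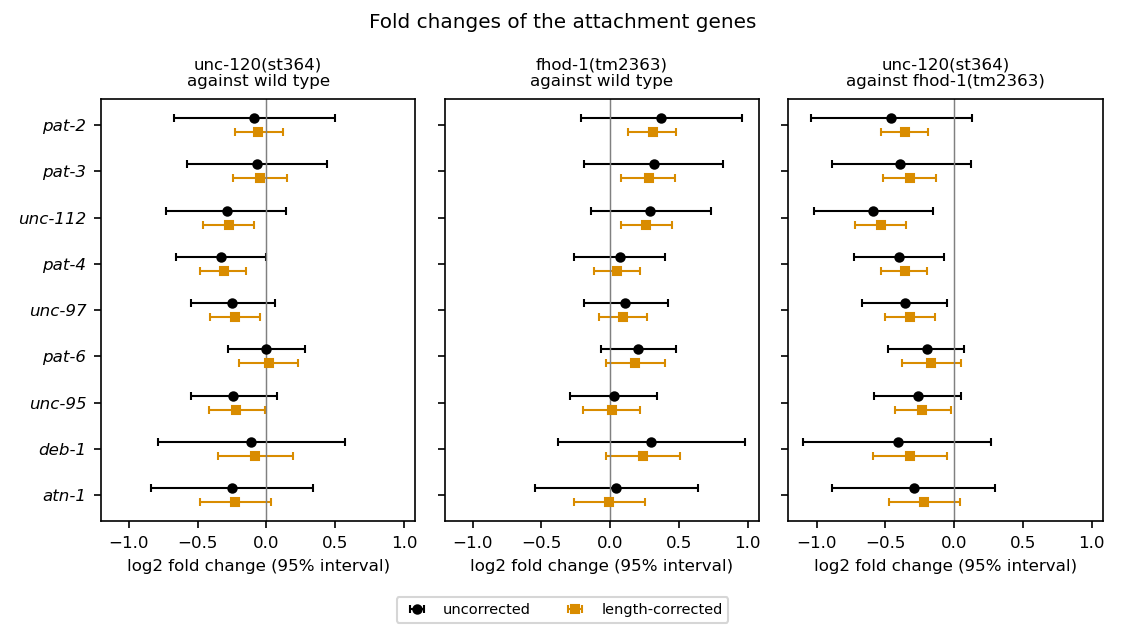
Log2 fold changes of the 9 genes with 95% intervals from limma, in the 3 comparisons, before (black circles) and after (orange squares) correction of each library for exonic length. The length-corrected intervals are narrower, most of all for pat-2, pat-3, deb-1 and atn-1, and in the right panel all 9 estimates lie below 0 on both scales.

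In fhod-1(tm2363) against wild type, 0 of the 9 were called, where 3.66% of all tested genes were, and 0 had an unadjusted p under 0.05, where 18.1% of all genes did. Limma voom on the recovered reads called 0 (smallest adjusted p 0.338), where it called 2.77% of all genes. The median log2 fold change was 0.20, beside 0.01 over all genes; it was 0.12 without replicate 4 of fhod-1(tm2363) and 0.13 without replicate 1 of wild type. On uncorrected values 0 genes of the set had all fhod-1(tm2363) libraries higher, where 6.72% of all genes did. Replicate 4 of fhod-1(tm2363) had the highest level for 8 of the 9 genes, and without it pat-4 and unc-95 were at -0.01 and atn-1 at -0.12.

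After length correction 1 of the 9, pat-2, was higher in fhod-1(tm2363) (log2 fold change 0.31, SE 0.08, limma adjusted p = 0.0235), where 8.16% of all genes were called higher and 17.3% in either direction. Its corrected log2 deviations from the mean of the 12 libraries were 0.139, 0.258, 0.200 and 0.293 in the fhod-1(tm2363) libraries, and -0.223, -0.027, -0.075 and -0.008 in wild type. Both groups lay on separate sides of 0. The other integrin gene, pat-3 (0.28, SE 0.09, adjusted p = 0.0512), and unc-112 (0.26, SE 0.08, adjusted p = 0.0509) were just outside the threshold, and their groups did not overlap either, so that 3 of 9 genes had all fhod-1(tm2363) libraries higher, where 10.4% of all genes did. The remaining estimates were 0.24 for deb-1, 0.18 for pat-6, 0.09 for unc-97, 0.05 for pat-4, 0.01 for unc-95 and -0.01 for atn-1, and each of their 95% intervals held 0. Call and values of pat-2 were alike without replicate 2 of unc-120(st364) (0.31, limma adjusted p = 0.0191). That library enters this comparison through the length correction and the shared error estimate.

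The mutants were also set against each other, which uses the same libraries again and is no separate evidence. Uncorrected, 0 of the 9 were called, where 1.44% of all genes were. There were 3 with an unadjusted p under 0.05 (unc-112, pat-4 and unc-97), where 11.1% of all genes had one, and limma voom on the recovered reads called 0 (smallest adjusted p 0.115), where it called 1.35% of all genes. All 4 unc-120(st364) libraries were below all 4 fhod-1(tm2363) libraries for pat-6 and unc-97, 2 of 9, where 4.75% of all genes were so. The median of the 9 was -0.39, beside -0.02 over all genes. It was -0.17 without replicate 2 of unc-120(st364) and -0.26 without replicate 4 of fhod-1(tm2363).

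After length correction 4 of the 9 were called as lower in unc-120(st364), set against fhod-1(tm2363), where 2.84% of all genes were called lower and 5.08% in either direction. The largest of these differences was that of unc-112. Its corrected deviations were -0.333, -0.295, -0.233 and -0.215 in the unc-120(st364) libraries, and 0.249, 0.333, 0.227 and 0.256 in the fhod-1(tm2363) libraries. The groups lay on separate sides of 0, and the difference was -0.53 on the log2 scale (SE 0.08, limma adjusted p = 0.00364).

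For pat-4 the corrected deviations were -0.323, -0.203, -0.271 and -0.104 in the unc-120(st364) libraries, and 0.092, 0.132, 0.075 and 0.251 in the fhod-1(tm2363) libraries, a log2 difference of -0.36 (SE 0.08, limma adjusted p = 0.0197). For unc-97 they were -0.220, -0.185, -0.188 and -0.140 in the unc-120(st364) libraries, and 0.118, 0.130, 0.148 and 0.158 in the fhod-1(tm2363) libraries, a log2 difference of -0.32 (SE 0.08, limma adjusted p = 0.0427). The groups of both genes were apart with narrow spreads. The call of pat-2 (-0.36, SE 0.08, limma adjusted p = 0.0227) and that of unc-97 were lost without replicate 2 of unc-120(st364), at adjusted p = 0.0553 and 0.0792. Those of unc-112 (-0.53, adjusted p = 0.0111) and pat-4 (-0.37, adjusted p = 0.0383) were not.

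Non-overlap on corrected values was found for 5 of the 9 (pat-2, pat-3, pat-4, unc-112 and unc-97), where 7.13% of all genes were lower in this way. The other genes were at -0.32 for deb-1, -0.23 for unc-95, -0.22 for atn-1 and -0.17 for pat-6, with limma adjusted p-values between 0.152 and 0.324.

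The spread of the genes within a group followed their exonic length. The within-group SD on the log2 scale was 0.14 to 0.18 for the 4 genes shorter than 1600 exonic bases (unc-95, pat-6, unc-97 and pat-4). It was 0.31 for unc-112 (2485 bases), 0.37 for pat-3 (2848 bases), 0.45 for atn-1 (3253 bases), 0.53 for deb-1 (3892 bases) and 0.45 for pat-2 (3972 bases). After length correction it was 0.08 to 0.18 for all 9, with deb-1 and atn-1 the most variable. Over the 12 libraries the highest level was between 1.41 times (pat-6) and 3.54 times (deb-1) the lowest.

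**Figure D3:**
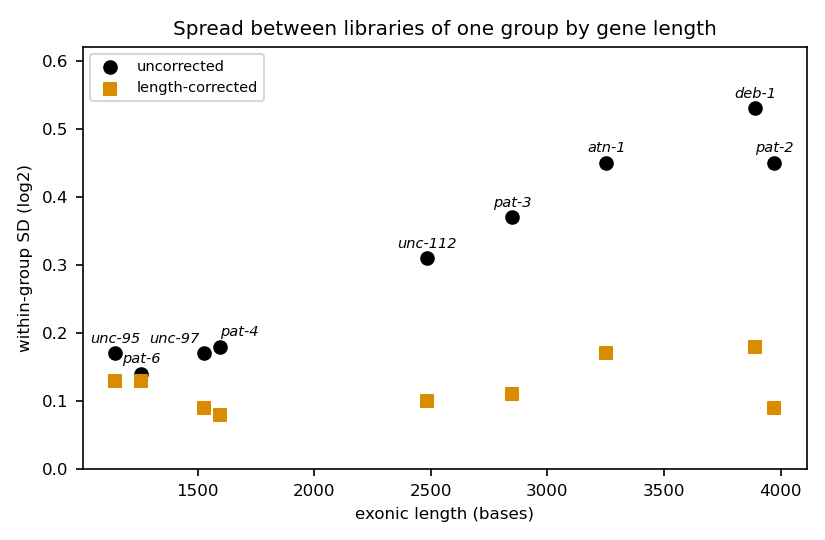
Within-group SD of each gene's log2 level over the 3 groups of 4 libraries (vertical axis) against its exonic length in bases (horizontal axis), before (black circles) and after (orange squares) length correction. Uncorrected spread is 0.14 to 0.18 in the 4 shortest genes and 0.31 to 0.53 in the 5 longer ones, and 0.08 to 0.18 in all 9 after correction.

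Averaged over the 9 genes, the log2 deviation of a library from the mean of all libraries was -0.25, -0.72, 0.05 and 0.17 in the unc-120(st364) libraries, 0.09, 0.28, -0.10 and 0.48 in the fhod-1(tm2363) libraries, and -0.20, 0.15, 0.10 and -0.07 in wild type. All 3 groups overlapped. Length-corrected, the averages were -0.25, -0.22, -0.13 and -0.04 in the unc-120(st364) libraries, 0.09, 0.18, 0.12 and 0.24 in the fhod-1(tm2363) libraries, and -0.10, 0.07, -0.05 and 0.09 in wild type. On that scale every unc-120(st364) library was below every fhod-1(tm2363) library, and wild type overlapped unc-120(st364) and reached 0.09, the lowest fhod-1(tm2363) value.

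**Figure D4:**
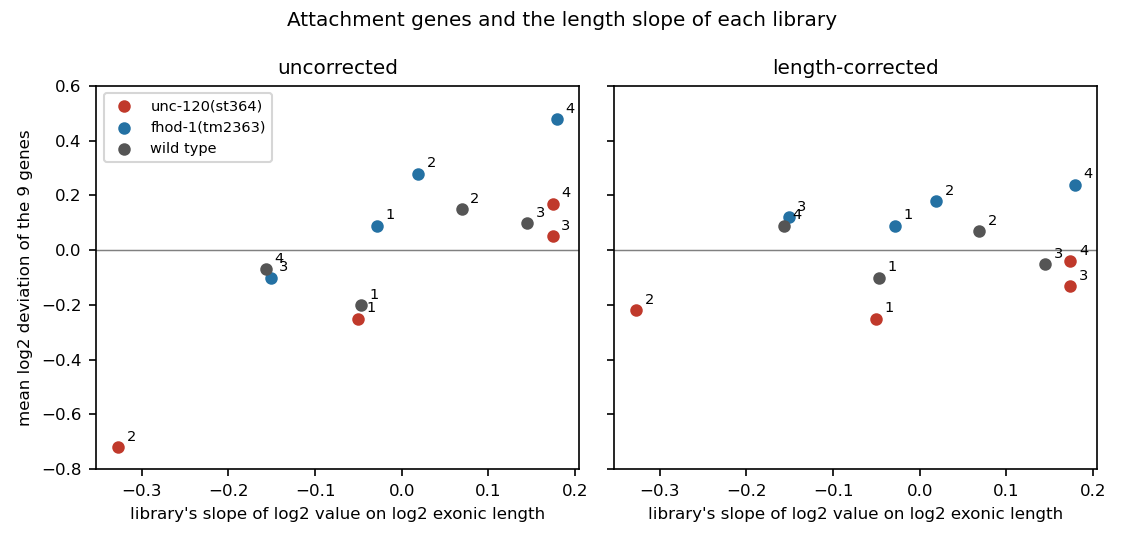
Mean log2 deviation of the 9 genes in each library (vertical axis) against that library's slope of log2 value on log2 exonic length (horizontal axis), uncorrected at left and length-corrected at right; numbers are replicates. Replicate 2 of unc-120(st364), with a slope of -0.327, is at -0.72 uncorrected and at -0.22 corrected.

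Ratios between genes that work in 1 complex were compared within libraries, per exonic base. Relative to pat-4, pat-6 stood at 3.10 ± 0.564 in unc-120(st364), 2.62 ± 0.28 in fhod-1(tm2363) and 2.39 ± 0.306 in wild type (SD, n = 4 each). The log2 difference of 0.37 between unc-120(st364) and wild type had a two-sided exact permutation p of 0.0857 (adjusted 0.515), and the groups overlapped. The ratio of unc-112 to pat-4 was 2.14 ± 0.278 in unc-120(st364), 2.38 ± 0.116 in fhod-1(tm2363) and 2.05 ± 0.275 in wild type. Its log2 difference of 0.23 between fhod-1(tm2363) and wild type had the smallest p of the family (exact permutation p = 0.0571, adjusted 0.515). The ratio of unc-97 to pat-4 was 3.18 ± 0.178 in unc-120(st364), 3.02 ± 0.197 in fhod-1(tm2363) and 2.94 ± 0.243 in wild type. Without replicate 2 of unc-120(st364) the difference of pat-6 to pat-4 between unc-120(st364) and wild type was 0.26 (exact permutation, adjusted p = 0.685), and length-corrected it was 0.33 (exact permutation, adjusted p = 0.214). Of 15 such tests, 5 ratios in 3 comparisons, 0 passed after adjustment. The smallest p that such a test of 4 against 4 libraries allows is 0.0286. Adjusted over 15 tests, a single ratio at that p could not have passed, so this outcome does not show that the ratios were alike.

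**Figure D5:**
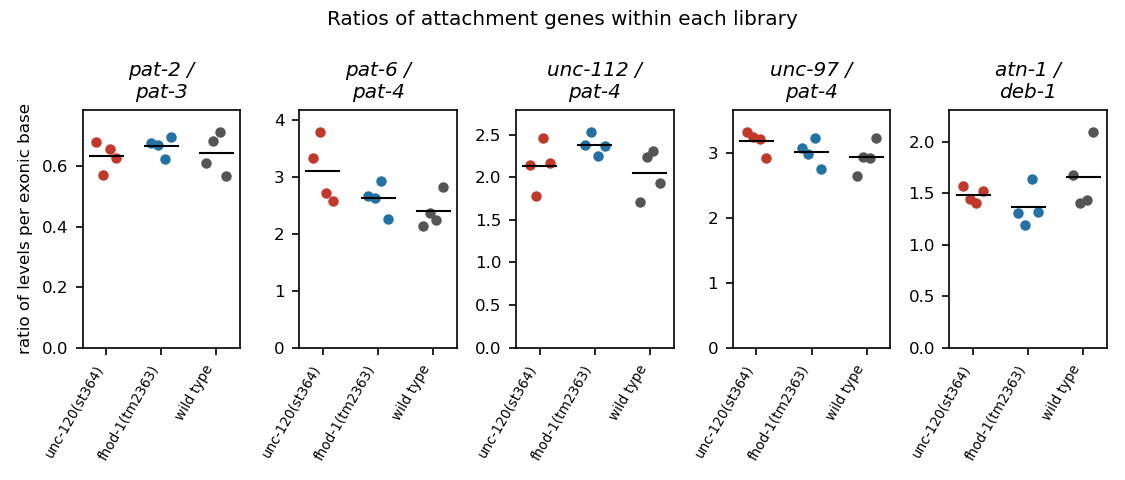
Ratios of levels per exonic base for 5 pairs of attachment genes (vertical axes, linear from 0) in each library of the 3 groups, replicates from left to right, with the group mean as a line. The points of all groups overlap in each panel; the ratio of pat-6 to pat-4 reaches 3.79 in an unc-120(st364) library, against at most 2.83 in wild type.

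Partners of the core were examined from lists drawn up by known role. Of 6 integrin and ligand genes (the other alpha integrin ina-1, the perlecan gene unc-52 and the laminin genes epi-1, lam-1, lam-2 and lam-3), 5 were tested and lam-3 was under the filter. None was called in any comparison, uncorrected, length-corrected or by limma voom (smallest limma adjusted p 0.145). Their median log2 fold changes were -0.06 in unc-120(st364) against wild type, 0.06 in fhod-1(tm2363) against wild type and -0.11 between the mutants. All 5 genes were fitted higher in unc-120(st364) once replicate 2 of that group was left out, with medians of 0.21 against wild type and 0.16 against fhod-1(tm2363), and 0 were called. Length-corrected, the median for unc-120(st364) was -0.03 and that for fhod-1(tm2363) -0.06, each set against wild type; between the mutants it was -0.02.

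Of 25 other adhesion and dense body genes 13 were tested, and 0 were called in any comparison on uncorrected values; the medians were -0.13, 0.05 and -0.27 in the same order of comparisons (-0.10, 0.00 and -0.11 length-corrected). The first was -0.04 and the last -0.07 without replicate 2 of unc-120(st364). In unc-120(st364) against wild type the smallest p-values were those of alp-1, an ALP/Enigma LIM protein of dense bodies (-0.58, limma adjusted p = 0.407), of dim-1, an immunoglobulin-domain protein found around dense bodies (-0.57, adjusted p = 0.648), and of ketn-1, the actin-binding kettin (-0.47, adjusted p = 1.0). In fhod-1(tm2363) against wild type they were those of unc-98, a zinc-finger protein of M-lines and dense bodies (0.35, limma adjusted p = 0.187), of pxl-1, paxillin (0.34, adjusted p = 0.256), and of dim-1 (0.25, adjusted p = 0.628). Between the mutants they were those of dim-1 (-0.82, limma adjusted p = 0.164), pxl-1 (-0.50, adjusted p = 0.172) and alp-1 (-0.62, adjusted p = 0.238).

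Levels of dim-1 were 54.4 ± 19.6 in unc-120(st364), 93.8 ± 21.7 in fhod-1(tm2363) and 77.9 ± 13.8 in wild type (SD, n = 4 each). After length correction dim-1 was lower in unc-120(st364) than in wild type (-0.55, limma adjusted p = 0.0305), the only 1 of the 13 called where 1.81% of all genes were, and than in fhod-1(tm2363) (-0.77, adjusted p = 0.00203). The gene alp-1 was then lower in unc-120(st364) when set against fhod-1(tm2363) (-0.51, adjusted p = 0.0469), which made 2 of 13 where 5.08% of all genes were called, and no other partner was called in the length-corrected fit to all 12 libraries. Without replicate 2 of unc-120(st364) the corrected difference of dim-1 from wild type was -0.52 and no longer called (adjusted p = 0.0681), while that of ketn-1 was (-0.52, adjusted p = 0.0485). The calls against fhod-1(tm2363) were kept, for dim-1 at adjusted p = 0.00787 and for alp-1 at 0.0397. In that comparison pxl-1 was then called too (-0.55, limma adjusted p = 0.0437), which made 3 of 13, where 221 of 5921 genes were called.

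Of 16 sarcomere markers of body-wall muscle 14 were tested and 0 were called uncorrected, with medians of -0.36 in unc-120(st364) against wild type, 0.11 in fhod-1(tm2363) against wild type and -0.51 between the mutants; their summed levels were 4430 to 5920 in unc-120(st364), 6100 to 7330 in fhod-1(tm2363) and 5040 to 7040 in wild type. On uncorrected values all 14 were fitted lower in unc-120(st364) than in wild type. Without replicate 2 of unc-120(st364) all 14 were again lower (median -0.27), and the attachment genes were split into 5 higher and 4 lower. Length-corrected and without that library, all 14 markers were lower (median -0.41), and so were all 9 attachment genes (median -0.16). After length correction 4 of the 14 were called lower in unc-120(st364) than in wild type, where 1.18% of all genes were. They were the myosin heavy chain genes unc-54 (-1.06, limma adjusted p = 0.000902) and myo-3 (-0.78, adjusted p = 0.00177), unc-15, the paramyosin gene (-0.72, adjusted p = 0.00765), and unc-22, the twitchin gene (-0.49, adjusted p = 0.0331). All 4 were also called on the corrected scale without replicate 2 of unc-120(st364), at adjusted p-values up to 0.0258. Each of these 4 estimates was farther from 0 than that of any attachment gene, but the 4 were picked by their calls. All 14 markers ran from -1.06 to -0.03 and the 9 attachment genes from -0.31 to 0.02, so the ranges overlapped. The difference between the 2 lists was not tested. Length-corrected, unc-54 was also lower in fhod-1(tm2363) than in wild type (-0.41, limma adjusted p = 0.0481), 1 of 14 where 17.3% of all genes were called, and 6 of the 14 were lower in unc-120(st364) set against fhod-1(tm2363), where 2.84% of all genes were. The corrected mean deviation of the 9 genes minus that of the sarcomere markers was 0.29, 0.05, 0.08 and 0.12 in the unc-120(st364) libraries, and -0.07, -0.21, -0.20 and -0.04 in wild type, so all 4 mutant libraries were above all 4 wild-type ones. In fhod-1(tm2363) it was 0.03, 0.02, -0.07 and 0.00. The separation of unc-120(st364) from wild type on this measure was not tested.

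Markers of other tissues were read in the same comparisons. All 6 tested of 8 pharyngeal muscle markers were fitted higher in fhod-1(tm2363) than in wild type (median 0.58, 0 called), with summed levels of 245 to 384 in fhod-1(tm2363) and 152 to 268 in wild type. All 7 tested of 8 neuron markers were fitted higher than wild type in unc-120(st364) (median 0.20, 0 called) and in fhod-1(tm2363) (median 0.34, 0 called). After length correction 4 of the 7 were higher in fhod-1(tm2363) than in wild type, where 8.16% of all genes were called higher. Of the 8 intestine markers 7 were fitted lower in each mutant, with medians of -0.29 for unc-120(st364) and -0.16 for fhod-1(tm2363). Medians of the hypodermis markers, 7 of 8 tested, were 0.14 for unc-120(st364) and 0.08 for fhod-1(tm2363), and those of the germline markers, 4 of 8 tested, were -0.18 and -0.29 in the same order. The germline median for unc-120(st364) was 0.06 without replicate 2 of that group, with all 4 genes fitted higher, and the unc-120(st364) median of pharyngeal markers was then 0.18, against -0.03 with that library. The hypodermis median for fhod-1(tm2363) was -0.06 after length correction. On the corrected scale 2 intestine markers and 1 germline marker were called lower and 1 hypodermis marker higher in fhod-1(tm2363) than in wild type, where 17.3% of all genes were called, and 0 of these tissues' markers were called in unc-120(st364) against wild type. The part of any of these tissues in the levels of the attachment genes was not tested.

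The 5 genes outside the set whose log2 profile over the 12 libraries was most like the mean standardised profile of the 9 were R11G1.6 (Pearson r = 0.977), F44B9.2 (0.965), gyg-1, the glycogenin gene (0.957), cey-1, a Y-box RNA-binding protein gene (0.956), and hpo-28 (0.952). On length-corrected values they were R11G1.6 (0.957), T01E8.1 (0.941), C29F5.1 (0.935), C08E3.13 (0.933) and dim-1 (0.927). R11G1.6 was on both lists, with mean levels of 15.0 in unc-120(st364), 21.3 in fhod-1(tm2363) and 16.9 in wild type. These likenesses describe libraries that share groups, scaling and the length-related differences, and carry no test.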

How the data were processed

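The authors deposited 1 table of 12 libraries and 23515 genes. Bowtie2 2.2.5, Partek and WBcel235 are named in the submitters' processing notes, with no role given. The deposited values are TPM-like: each column summed to 638200, and of the low values (up to 100 reads) 99.2% to 99.3% were whole multiples (within 0.05) of 1 read divided by gene span, against 8.2% to 9.3% by exonic length and 10% by chance. Whole reads were recovered in this way. The filter and test had been chosen for another length scaling and were kept. Ends are the table's minus 1 base; exonic lengths are from Ensembl release 115.

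Tests used log2(value + 1) of genes at a value of 10 or more in at least 4 libraries, with limma 3.58.1 (lmFit, eBayes with a trend) in R 4.3.3, 1 mean per group; length correction was loess on log2 exonic length (span 0.5, degree 1). Single ratios had two-sided exact permutation tests (scipy 1.17.1). Alternatives were other pseudocounts, filters and scalings, no trend, only the groups compared, length terms, a replicate block and leaving out each library; limma voom on recovered reads, levels per exonic base and the length-corrected fit without unc-120(st364) replicate 2 were added after seeing the data. The procedure was tested on simulated data for unc-120(st364) against wild type, with 50 genes changed at each size. It called 0 of 50 at a log2 change of 0.25, 5 of 50 at 0.5 and 44 of 50 at 1.0. In that comparison, missing calls therefore do not show that genes were unchanged at log2 changes of 0.5 or less.

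The 9 genes and all lists were chosen with earlier results of these data known. Genes named are the 9, partners called or with the 3 smallest p in a comparison, and the 5 most alike. No sequence is shown, because no sequence file was used here. Intervals of read numbers cover counting error only.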

Additional observations from a re-analysis of the deposited data

How the results depend on the processing

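The counts of called genes changed by over 1.5 times with the filter and with length correction in every comparison. In at least 1 comparison they also did so with only the groups compared, limma voom, levels per exonic base, the replicate block and single libraries left out. Upper-quartile and quantile scaling did not change the counts by that much. For unc-120(st364) against wild type (43 called, 12 higher and 31 lower) they were 178 for every gene above 0 (91 higher, 87 lower), 154 at 1 or more in 4 libraries (67 and 87), 0 at a mean of at least 50, 107 with length correction, 149 with the slope as a covariate, 15 with only the groups compared, 28 by limma voom on recovered reads, 68 per exonic base, 87 with length correction and without unc-120(st364) replicate 2, and 17 to 42 when single libraries were left out. For fhod-1(tm2363) against wild type (217, of which 138 higher) they were 762 (581 higher), 671 (495 higher), 54, 1027 with length correction (483 higher, 544 lower), 1210 with the slope, 1065 with length correction and without that library, and 91 to 319 leaving out single libraries. Between the mutants (85, of which 65 lower) they were 279, 253, 22, 301 with length correction (133 higher, 168 lower), 379 with the slope, 221, and 36 to 100.

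Of the 9 attachment genes, length correction called 1 in fhod-1(tm2363) against wild type and 4 between the mutants. It called 17.3% and 5.08% of all genes there. The slope covariate called 3 and 5 of the 9, where it called 1210 and 379 of 5921 genes. Length correction without unc-120(st364) replicate 2 called 1 and 2 of the 9, where it called 1065 and 221 of 5921 genes. Every other alternative run except the replicate block with length correction called 0 of them, and leaving out single libraries called 0. At a mean of at least 50 only unc-97, atn-1 and pat-6 remained to be tested.

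Correlations of same-numbered libraries' deviations ran from -0.71 to 0.85. They were 0.53 to 0.66 for replicate 1, but were not over 0.1 for every number in any comparison, so the numbers were not taken to pair the samples. These correlations are of uncorrected values, on which the length slopes of the libraries act. Sample titles carry the letters K to N in each strain, which may mark shared batches, and this was not settled. The replicate block called 65, 325 and 94 of 5921 genes and 0 attachment genes in each comparison. With length correction it called 289, 1629 and 720 of 5921 genes, and 1, 3 and 5 of the 9 attachment genes. In unc-120(st364) against wild type the 1 was pat-4 (-0.31, limma adjusted p = 0.0248). Not every library correlated best with its own number.

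Signs of small log2 fold changes turned as follows; the cause was not tested. In unc-120(st364) against wild type, leaving out single libraries gave -0.24 to 0.20 for pat-2, -0.23 to 0.17 for pat-3, -0.29 to 0.16 for deb-1 and -0.44 to 0.03 for atn-1. In fhod-1(tm2363) against wild type, unc-95 was at -0.04 after quantile normalization, and leaving out single libraries gave -0.01 to 0.10 for unc-95, -0.01 to 0.15 for pat-4 and -0.12 to 0.14 for atn-1. For atn-1 it was -0.01 with length correction, also with the block or without unc-120(st364) replicate 2. Without single libraries the log2 ratio differences from wild type were -0.08 to 0.03 for pat-2 to pat-3 and -0.02 to 0.15 for unc-112 to pat-4 in unc-120(st364), and -0.01 to 0.09 for unc-97 to pat-4 in fhod-1(tm2363). Counting error of these genes was at most 3.15% of a level; an effect of depth on the calls was not tested.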
